A study of Drosophila melanogaster with 8 samples.

Results

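The genes described here encode odorant-binding proteins (Obp genes and lush), the small CheA and CheB proteins of taste bristles, and the antennal proteins a5, a10 and Os-C, together with a6. They were taken by gene name alone, with a pattern that accepted Obp, CheA and CheB names followed by a number, lush, Pbprp and Os- names, and the letter a followed by a number. Of the 13918 genes in the deposited table, 76 matched: 52 Obp genes with lush among them, 8 CheA genes, 12 CheB genes and 4 others (a5, a6, a10 and Os-C). No gene matched through the older Pbprp names, since those proteins carry Obp names in this table. They are called carrier genes below, although a6 was taken by its name alone and is not known here to encode a carrier or an antennal protein.

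The pupae that developed at 3 g, in hypergravity, were compared with controls kept at the normal 1 g. Both groups were wild-type Canton-S flies of Drosophila melanogaster at 25 °C, collected as whole pupae at the early pupal stage P6, and neither carried a transgene or received an agent. Each group had 4 libraries of polyadenylated RNA, each from a pool of 4 pupae, and the labels used here give no sex. A value therefore sums over all tissues and over 4 animals, and fewer cells of a type cannot be told apart from less RNA per cell. No label ties the pools to separate cultures, and the p-values cover only the spread among these 8 pools, which may be technical.

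Odorant-binding proteins are small secreted proteins folded around a pocket held by disulphide bonds. In the adult antenna and in taste bristles, support cells secrete them into the lymph around the dendrites of sensory neurons, where they bind odorants, pheromones or tastants. Many members are made in other places, among them fat body, glia, gut and the male reproductive tract, and their ligands there are mostly unknown. Classes are told apart by cysteines: the minus-C proteins lack a conserved pair, and the plus-C proteins have more than the classic ones. CheA and CheB proteins are secreted in or near the taste bristles of the legs, several of them mainly in males, and CheB42a is known from pheromone-sensing taste neurons.

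The table gives transcripts per 1000000 (TPM), a share of each library corrected for transcript length, with no record of read depth. Depth and counting error are therefore unknown, and a gene without signal is described as listed at 0. Between 13219 and 13388 genes were above 0 in a library. The mean correlation of a library with the others of its group was lowest for replicate 2 at 3 g (0.881) and for replicate 4 at 1 g (0.922). Of the marker lists, neurons (8 of 8 genes), glia (8 of 8), fat body (9 of 11 listed in the table), testis (13 of 14) and muscle (8 of 8) were each present, with no listed gene of these lists at 0 in every library. The receptor cofactor Orco, which the antenna needs for most odorant receptors, stood at 0.04 to 0.50 TPM at 3 g and 0.21 to 0.53 TPM at 1 g.

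A few carrier genes were among the most abundant transcripts of the pupa and most were near 0. Together the 76 genes took 0.988 ± 0.0441% of all TPM at 3 g and 1.03 ± 0.121% at 1 g (SD, n = 4 pools each). The top 4, Obp56a, Obp99b, Obp44a and Obp99c, made up 89.1% to 93.9% of that sum at 3 g and 91.8% to 93.6% at 1 g. By their mean over all 8 libraries they ranked 16, 54, 63 and 100 of the 13918 genes. Below them came 3 genes of at least 100 TPM (Obp99a, Obp83g and Obp83ef), 4 between 10 and 100 TPM (Obp56d, Obp83cd, Obp99d and Obp73a), and 15 between 1 and 10 TPM. A further 47 had a mean above 0 and below 1 TPM, and 3 (Obp19a, Obp19b and a5) were listed at 0 in every library. Only 29 of the 76 were above 0 in all 8 libraries.

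**Figure D1:**
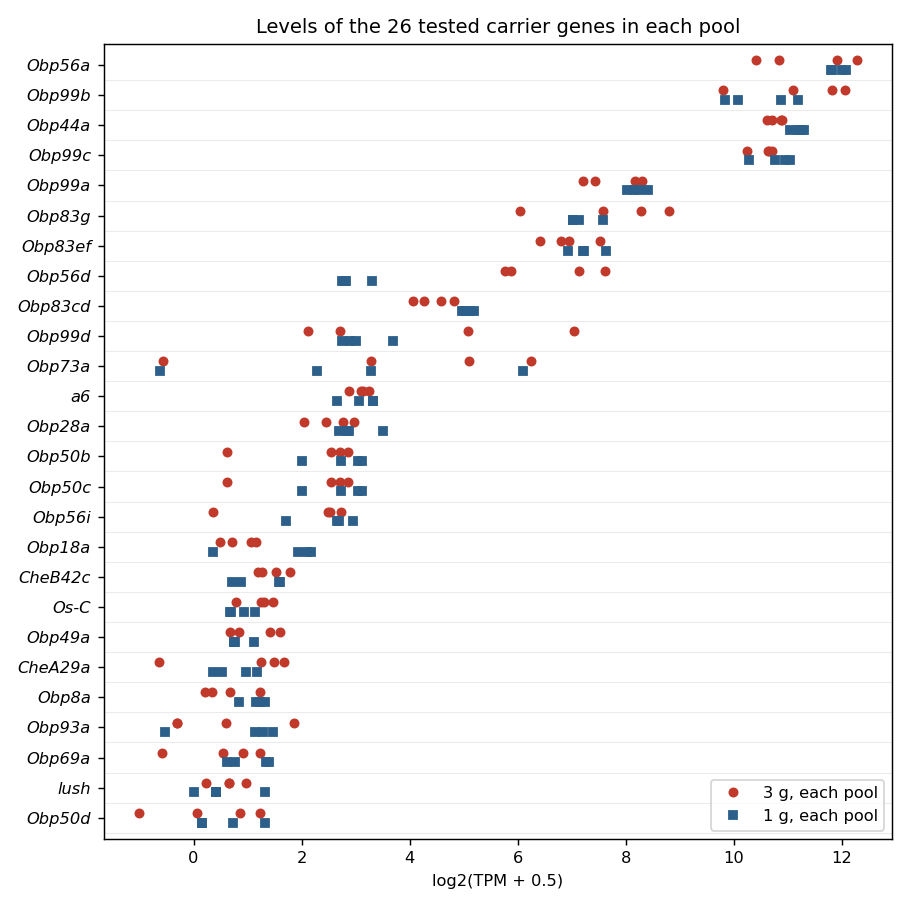
Level of each carrier gene with a mean of at least 1 TPM, as log2(TPM + 0.5), in the 4 pools at 3 g (red circles) and the 4 pools at 1 g (blue squares), ordered by mean level. Obp56d is the gene whose pools at 3 g all lie far above the control pools, and Obp73a and Obp99d spread widest within a group.

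Testing was limited to genes averaging 1 TPM or more across the 8 libraries, which kept 26 of the 76 members, and 50 were left to description. Obp50b and Obp50c, both among the 26, hold identical values and are in effect 1 measurement. Changes are log2 differences of TPM + 0.5 between 3 g and 1 g, from a limma fit over all 12044 genes that met the minimum, with p-values adjusted over all of them by the method of Benjamini and Hochberg. At an adjusted p under 0.05, 1 of the 26 tested members was higher at 3 g, which is 3.85% where 2.23% of all genes tested were called higher. None was called lower (limma), where 2.06% of all genes were. An unadjusted p under 0.05 was found for 3 members (Obp56d, Obp44a and Obp83cd), which is 11.5%, where 16.3% of all genes tested had one. The 4 values at 3 g lay above all 4 controls for 1 member, beside 6.49% of all genes tested, and below all 4 controls for 2 members, beside 6.00%. These shares are near those of the whole table, and the counts are no result about the family as a group. The median log2 change was -0.31 over the 26 members and -0.02 over all genes tested, with 15 members below 0 and 11 above. With 1 library left out, the member median ran from -0.36 (without 1 g replicate 4) to -0.01 (without 3 g replicate 2). The medians over all genes tested were then -0.09 and 0.05.

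The member that rose was Obp56d, an odorant-binding protein gene of the cluster at cytological region 56. It read 58.55, 140.29, 53.65 and 195.34 TPM in replicates 1 to 4 at 3 g, against 6.20, 6.53, 9.36 and 6.45 TPM in replicates 1 to 4 at 1 g. The lowest pool at 3 g was above the highest control by a wide margin, and the pools at 3 g themselves split into a lower pair (1 and 3) and a higher pair (2 and 4). Means were 112 ± 68.3 TPM at 3 g and 7.14 ± 1.49 TPM at 1 g (SD, n = 4 each), a ratio of 15.7. The log2 change was 3.68 ± 0.42 (SE, adjusted p = 0.00400, limma with Benjamini-Hochberg adjustment), with a 95% interval from 2.71 to 4.66. It stayed past the threshold without any single library, with log2 changes of 3.35 to 3.96 and adjusted p of 0.00413 to 0.0222.

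Marker genes of other tissues moved with this rise. The 11 salivary gland markers (glue, new glue and Eig71E genes) summed to 4974 to 12593 TPM at 3 g and to 7.26 to 18.8 TPM at 1 g. Of them, 6 lay wholly above the controls, and ng1, ng2 and ng3 were listed at 0 everywhere. Nearly all of the sum at 3 g came from Eig71Ea, Eig71Eb and Eig71Ec, at 1236 to 4905 TPM each. The glue (Sgs) genes stood at 32.49 TPM or less in every pool. The 9 fat body markers in the table summed to 5914 to 18528 TPM at 3 g and 1727 to 3519 TPM at 1 g, with 2 wholly above the controls and none at 0 in every library. Among the pools at 3 g, replicates 4 and 2 were highest for Obp56d, for the fat body sum and for the salivary gland sum alike. Muscle markers went the other way, with 7 of 8 genes wholly below the controls and sums of 935 to 1574 TPM at 3 g and 2893 to 10653 TPM at 1 g. The part of these tissues in the Obp56d result was not tested.

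The genes beside Obp56d did not share its level. In the RefSeq gene order of chromosome arm 2R, Obp56a, Obp56b, Obp56c and Obp56d stand in a row with no gene between them. Obp56a, at the other end of that row, was the highest carrier gene on average. Its levels were 4950 (4949.96), 1832, 3829 and 1366 TPM in replicates 1 to 4 at 3 g, and 4322, 4098, 3555 and 3591 TPM in replicates 1 to 4 at 1 g. The controls lay close together, while the pools at 3 g fell on both sides of them, with replicates 2 and 4 low. The log2 change was -0.56 ± 0.39 (SE, adjusted p = 0.609, limma), with a 95% interval from -1.46 to 0.33. It came to -0.25 when 3 g replicate 4 was left out and to -0.87 when 3 g replicate 1 was. The ratio of Obp56a to Obp56d ran between 7.00 and 84.5 at 3 g and between 380 and 697 at 1 g, and the 2 pools at 3 g with most Obp56d had least Obp56a.

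Between these neighbours, Obp56b was listed above 0 in 1 library only (0.14 TPM in 1 g replicate 4). Obp56c read 0, 0.38, 0.17 and 0.98 TPM at 3 g and 0, 0.08, 0 and 0.06 TPM at 1 g. Further along the arm, Obp56h, which in adult males affects mating behaviour and cuticular hydrocarbons, read 0.79, 2.47, 0.46 and 2.68 TPM at 3 g and 0.65, 0, 0 and 0 TPM at 1 g. Its pools at 3 g fell in the same order as those of Obp56d, and its lowest value at 3 g lay below the highest control. Its mean of 0.881 TPM was just under the minimum for testing. With no minimum applied, its log2 change was 1.59 ± 0.46 (SE, adjusted p = 0.123, limma). Obp56e and Obp56f read at most 0.61 TPM in any library, and Obp56g at most 0.54 TPM.

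**Figure D2:**
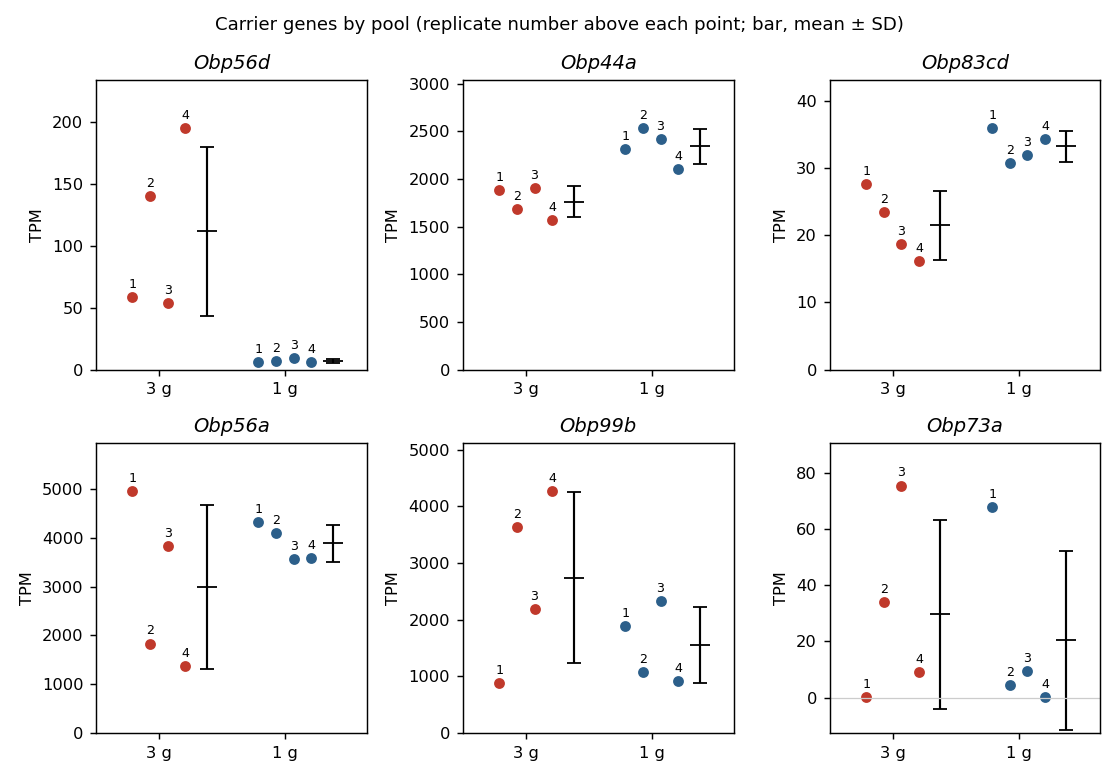
TPM of 6 carrier genes in each pool, with 3 g on the left and 1 g on the right of each panel, the replicate number above each point and the mean ± SD of 4 pools as a bar. The groups are separate for Obp56d, Obp44a and Obp83cd, and overlap for Obp56a, Obp99b and Obp73a.

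A pair of members lay wholly below the controls without passing the adjusted threshold, Obp44a and Obp83cd. Obp44a encodes a minus-C protein that binds fatty acids and is made by astrocytes in the nervous system. It read 1887, 1681, 1907 and 1569 TPM in replicates 1 to 4 at 3 g, against 2320.07, 2536, 2417 and 2101 TPM in replicates 1 to 4 at 1 g. The gap between the groups was narrow, but each group was tight, and the spread of Obp44a within groups ranked 11334 of the 12044 genes tested, from the widest. Means were 1761 ± 164 TPM at 3 g and 2344 ± 184 TPM at 1 g (SD, n = 4 each). The log2 change was -0.41 ± 0.10 (SE, adjusted p = 0.0696, limma), with a 95% interval from -0.65 to -0.18. It passed the threshold after median-of-ratios rescaling (adjusted p = 0.0414) and with array weights (adjusted p = 0.00801), and under no other alternative.

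Among the 8 glial markers, the pools at 3 g were wholly below the controls for alrm and Eaat1, both genes of astrocytes, and for no other. alrm read 9.50 to 15.6 TPM at 3 g and 19.1 to 70.5 TPM at 1 g. No glial marker lay wholly above the controls, but repo, wrapper, Gs2 and gcm reached higher at 3 g, with overlapping groups. The groups of moody and nrv2 overlapped too, without reaching higher at 3 g. The gene repo read 8.55 to 12.92 TPM at 3 g and 7.68 to 11.81 TPM at 1 g, and wrapper 10.13 to 18.24 TPM and 12.84 to 14.66 TPM. Gs2 read 104 to 182 TPM at 3 g and 72.9 to 119 TPM at 1 g, and gcm 2.22 to 3.53 TPM and 1.33 to 2.30 TPM. The glial list summed to 304 to 413 TPM at 3 g and 345 to 470.05 TPM at 1 g, with none at 0. Its part in the Obp44a values was not tested. Of the 8 neuron markers, 2 also lay wholly below the controls and 0 wholly above. In the Ensembl gene models, exons of Obp44a share 205 bases with Pabp2 on the other strand. Pabp2 was at 113 ± 12.1 TPM at 3 g and 99.1 ± 17.4 TPM at 1 g, with a mean that was not lower at 3 g. No use of strand is stated, so reads from such overlaps cannot be assigned to either gene with certainty.

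Obp83cd, whose protein joins a pair of odorant-binding domains in 1 chain, read 27.65, 23.43, 18.74 and 16.11 TPM at 3 g, against 35.98, 30.84, 31.90 and 34.36 TPM at 1 g. The highest pool at 3 g fell short of the lowest control. Means were 21.5 ± 5.11 TPM at 3 g and 33.3 ± 2.33 TPM at 1 g (SD, n = 4 each), and the log2 change was -0.65 ± 0.18 (SE, adjusted p = 0.0911, limma), with a 95% interval from -1.05 to -0.24. It passed with array weights (adjusted p = 0.0262) and without 3 g replicate 1 (adjusted p = 0.0487), and under no other alternative.

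Its neighbours on chromosome arm 3R behaved unlike each other. Obp83ef, the other double-domain gene, shares 92 exon bases with Obp83cd on the opposite strand. It read 182.7, 111, 123 and 84.4 TPM at 3 g and 199, 147, 149 and 121 TPM at 1 g, with overlapping groups (log2 change -0.33 ± 0.25, SE, adjusted p = 0.664, limma). Next to it, Obp83g read 311, 190.38, 443 and 65.1 TPM at 3 g and 129, 190.06, 140.19 and 129 TPM at 1 g. The pools at 3 g took in the control range and went well past it on both sides (log2 change 0.49 ± 0.54, SE, adjusted p = 0.728, limma). It came to 0.11 when 3 g replicate 3 was left out and to 1.03 when 3 g replicate 4 was (adjusted p = 0.155, limma). The 2 remaining genes of region 83, Obp83a and Obp83b, encode the antennal proteins OS-F and OS-E, which are made in odour-sensing hairs. Obp83a was at 0.09 TPM or less in every library. Obp83b read 0, 0, 0.40 and 0.54 TPM at 3 g and 0.42, 0.83, 0.63 and 0.76 TPM at 1 g.

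The 6 minus-C genes (Obp8a, Obp44a and Obp99a to Obp99d) made up 45.5% to 80.9% of carrier TPM at 3 g and 53.9% to 63.2% at 1 g. In 3 g replicate 1, the pool with the lowest share, they summed to less than Obp56a alone. The grouping follows general knowledge of the family and was made after the values were seen. The names Obp99b, Obp99c and Obp99d also stand in RefSeq as older synonyms of one another, and they are used here as the deposited table gives them.

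Obp99b, also called turn on sex-specificity, is known for its expression in the fat body of adult males. It read 887, 3629, 2195 and 4267 TPM in replicates 1 to 4 at 3 g, and 1888, 1083, 2334 and 912 TPM in replicates 1 to 4 at 1 g. The groups overlapped: 3 g replicate 1 was the lowest of the 8 libraries, and 3 g replicates 2 and 4 were above every control. The log2 change was 0.70 ± 0.53 (SE, adjusted p = 0.659, limma), with a 95% interval from -0.52 to 1.91, and its sign was negative with array weights (-0.20). The fat body marker sum had the same order of pools at 3 g, with 5914, 14077, 7301 and 18528 TPM in replicates 1 to 4. Of the single markers, Fbp2 (389, 2205, 1360 and 4718 TPM) and Lsp1alpha had that order, and the others did not. Fbp1 read 2723, 6681, 1153 and 9086 TPM in replicates 1 to 4 at 3 g, and Lsp2 2130, 3580, 3996 and 3258 TPM. Among controls the fat body sum was 3093, 1727, 3519 and 1763 TPM in replicates 1 to 4. Most of it was Lsp2, at 2217, 1383, 3073 and 1370 TPM. In that sum replicates 3 and 1 were again above replicates 2 and 4, as for Obp99b. The salivary gland marker sum, at 3 g nearly all from Eig71Ea, Eig71Eb and Eig71Ec, had the same order of pools at 3 g too. It was 4974, 10445, 6163 and 12593 TPM in replicates 1 to 4. Among controls it was 18.8, 10.9, 13.9 and 7.26 TPM, also with replicates 1 and 3 above replicates 2 and 4. The part of fat body or salivary gland in the Obp99b values was not tested.

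Obp99b and Obp56a changed places between pools. Obp99b was 0.179 times Obp56a in 3 g replicate 1 and 3.12 times Obp56a in 3 g replicate 4, while among controls the ratio ran from 0.254 to 0.657. The order of the pools at 3 g was 4, 2, 3, 1 for Obp99b and exactly the reverse for Obp56a. Obp56a was the highest carrier gene in all 4 controls and in 3 g replicates 1 and 3, and Obp99b in 3 g replicates 2 and 4.

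Obp99c held a similar level in nearly all libraries, with 1591, 1661, 1207 and 1600.45 TPM at 3 g and 2095, 1969.84, 1742 and 1251 TPM at 1 g. The groups overlapped through 1 g replicate 4, which lay below 3 of the pools at 3 g, and the log2 change was -0.20 ± 0.18 (SE, adjusted p = 0.687, limma). Obp99a read 289, 172, 315 and 148 TPM at 3 g and 261, 305, 284 and 338 TPM at 1 g, with 3 g replicates 2 and 4 below all others (log2 change -0.43 ± 0.26, SE, adjusted p = 0.514, limma). Obp8a, a minus-C gene also found in seminal fluid, was at 1.09 ± 0.539 TPM at 3 g and 1.72 ± 0.307 TPM at 1 g (SD, n = 4 each, log2 change -0.52, adjusted p = 0.411, limma).

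Obp99d and Obp73a varied most between pools of 1 group. Obp99d read 6.06, 131.22, 33.30 and 3.84 TPM at 3 g and 12.43, 6.96, 7.57 and 6.21 TPM at 1 g. It was high in 3 g replicates 2 and 3, and below every control in 3 g replicates 1 and 4. Its mean at 3 g of 43.6 ± 59.9 TPM against 8.29 ± 2.81 TPM at 1 g therefore rests on 2 pools, and the log2 change of 1.15 ± 1.00 (SE) had an adjusted p of 0.683 (limma) and was 0.22 without 3 g replicate 2.

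Obp73a read 0.18, 33.89, 75.54 and 9.25 TPM in replicates 1 to 4 at 3 g, and 67.93, 4.38, 9.31 and 0.15 TPM in replicates 1 to 4 at 1 g. Both groups thus held a pool under 1 TPM and a pool of 67.93 TPM or more, a range of 420 times at 3 g and 453 times at 1 g. The spread of Obp73a within groups, an SD of 2.88 on the log2 scale, ranked 24 of the 12044 genes tested. The log2 change of 0.76 ± 1.76 (SE, adjusted p = 0.868, limma) had a 95% interval from -3.31 to 4.83 and turned negative when either 3 g replicate 3 (-0.15) or 1 g replicate 4 (-0.37) was left out. The interval leaves room for large changes of Obp73a in either direction. In the Ensembl gene models, exons of Obp73a share 96 bases with the entry roo{}1018 and 63 bases with Ogdh, both on the same strand. Reads may have been shared with them, and their part in the Obp73a values was not tested.

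**Figure D3:**
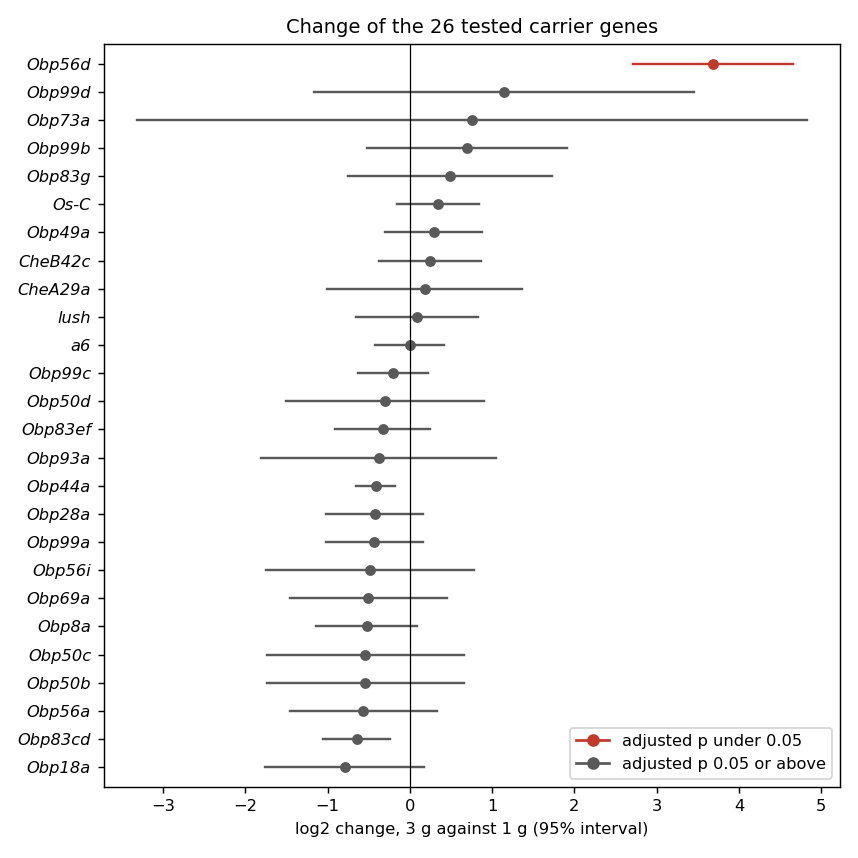
Log2 change of TPM + 0.5, 3 g against 1 g, of the 26 tested carrier genes, with the 95% interval from the limma fit. The interval of Obp56d (2.71 to 4.66) is the one past the adjusted threshold, and that of Obp73a (-3.31 to 4.83) is the widest.

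Carriers best known from the adult antenna were low at this stage. The protein LUSH, which male-pheromone detection requires in trichoid hairs, had a gene level of 0.67, 1.07, 1.45 and 1.08 TPM at 3 g and 0.84, 0.50, 0.84 and 2.00 TPM at 1 g. The control range enclosed that at 3 g, and the log2 change of lush was 0.08 ± 0.32 (SE, adjusted p = 0.925, limma). Obp28a, an abundant carrier of adult basiconic hairs, read 7.33, 6.32, 3.63 and 4.98 TPM at 3 g and 5.98, 6.71, 6.86 and 10.88 TPM at 1 g (log2 change -0.42 ± 0.26, SE, adjusted p = 0.522, limma). Obp69a, reported to respond to social context through a male pheromone, read 1.85, 0.17, 0.96 and 1.39 TPM at 3 g and 1.04, 2.14, 2.04 and 1.21 TPM at 1 g (adjusted p = 0.677, limma).

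Others of this kind were near 0. Obp19d was at 0.22 to 0.43 TPM at 3 g and 0.15 to 0.23 TPM at 1 g, and Obp59a, needed for humidity sensing, was above 0 in 1 control only, at 0.07 TPM. Obp84a stood at 0.10 to 0.12 TPM in every pool at 3 g and was listed at 0 in all 4 controls, a pattern singled out after its values were seen. With no minimum applied, its adjusted p was 0.0789 (limma), at levels where the table holds little more than the step above 0. Exons of Obp84a also share 663 bases with Dtwd2 on the other strand.

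Among carriers linked to taste, Obp49a, which in the fly binds bitter compounds and dampens the response to sugar, read 1.09, 2.16, 2.55 and 1.30 TPM at 3 g and 1.19, 1.18, 1.20 and 1.66 TPM at 1 g (adjusted p = 0.687, limma). Obp57d and Obp57e, known from tarsal taste hairs and egg-laying choice, reached at most 1.40 TPM and 1.34 TPM in a library. Obp57d shares 1488 exon bases with the cuticle gene Cpr57A on the same strand, which stood at 35.4 ± 13.3 TPM at 3 g and 52.8 ± 4.80 TPM at 1 g, so that reads of the 2 genes may have been shared. The other genes of region 57, Obp57a, Obp57b and Obp57c, were at 0.33 TPM or less.

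The plus-C genes were low as a class. The 13 of them summed to 21.5, 5.47, 17.0 and 17.2 TPM at 3 g and 11.1, 24.8, 17.6 and 22.9 TPM at 1 g. The highest of the class were Obp50b and Obp50c, which share 1648 exon bases on the same strand. Their shared value was 6.79, 1.03, 5.32 and 6.01 TPM at 3 g and 3.50, 8.15, 6.11 and 7.80 TPM at 1 g (log2 change -0.54 ± 0.52, SE, adjusted p = 0.692, limma). The lowest pools were 3 g replicate 2 and 1 g replicate 1, and without 3 g replicate 2 the log2 change was -0.0194. Obp50d, a neighbour by name, read 0.55, 0.00, 1.31 and 1.86 TPM at 3 g and 0.61, 2.01, 0.61 and 1.16 TPM at 1 g (log2 change -0.30 ± 0.52, SE, adjusted p = 0.823, limma), and Obp93a read 3.13, 0.31, 1.01 and 0.31 TPM at 3 g and 0.19, 1.69, 1.93 and 2.29 TPM at 1 g (log2 change -0.38 ± 0.62, SE, adjusted p = 0.81, limma). Both overlapped between the groups. Exons of Obp93a share 492 bases with CG5793 on the other strand, which was at 55.0 ± 5.28 TPM at 3 g and 55.3 ± 6.59 TPM at 1 g. Reads may have been shared between them. Outside the plus-C class, Obp18a had the lowest log2 change of all tested members. It read 0.91, 1.72, 1.60 and 1.14 TPM at 3 g and 3.80, 0.79, 4.02 and 3.32 TPM at 1 g (log2 change -0.79 ± 0.42, SE, adjusted p = 0.441, limma), with the other controls above every pool at 3 g and 1 g replicate 2 below them all.

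The lowest pools of Obp50b and Obp50c in each group, 3 g replicate 2 and 1 g replicate 1, were also lowest in the 13 testis markers, which summed to 5253, 892, 4879 and 4925 TPM in replicates 1 to 4 at 3 g and to 3307, 7002, 5246 and 7495 TPM in replicates 1 to 4 at 1 g. None of the markers was at 0 in every library, and none had groups that did not overlap. Obp56i, a seminal fluid protein of adult males, was lowest in these pools too, with 5.09, 0.79, 5.23 and 6.10 TPM at 3 g and 2.78, 7.22, 5.84 and 6.00 TPM at 1 g (log2 change -0.48 ± 0.55, SE, adjusted p = 0.732, limma). Its change was 0.0678 without 3 g replicate 2. Over the 8 libraries, Obp50b, Obp50c and Obp56i were lowest in 3 g replicate 2, as were 30.6% of all genes of 1 to 10 TPM. How many such genes were lowest among the controls alone in 1 g replicate 1 was not determined. The part of testis RNA in the values of Obp50b, Obp50c and Obp56i was not tested. The other seminal fluid carriers besides Obp8a were low, with Obp51a at 1.10 TPM or less and Obp22a at 0.22 TPM or less in any library. The 20 accessory gland and duct markers in the table summed to 119 to 583 TPM at 3 g and 340 to 513 TPM at 1 g, mostly through PebIII. Next came Acp95EF, at 3.19 to 32.86 TPM at 3 g and 13.6 to 32.35 TPM at 1 g, and Acp32CD, at 4.52 to 11.55 TPM at 3 g and 5.97 to 8.58 TPM at 1 g. Acp26Aa, Acp29AB and Acp33A were at 0.17 TPM or less.

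CheA and CheB genes were barely measured. The 20 genes together summed to 5.66 to 7.47 TPM at 3 g and 4.59 to 6.51 TPM at 1 g. Only CheA29a and CheB42c reached the minimum for testing. CheA29a, made in taste bristles of male forelegs, read 2.32, 1.89, 2.68 and 0.14 TPM at 3 g and 1.47, 0.79, 1.76 and 0.95 TPM at 1 g (log2 change 0.18 ± 0.52, SE, adjusted p = 0.895, limma). CheB42c read 1.78, 2.94, 2.37 and 1.90 TPM at 3 g and 2.50, 1.34, 2.53 and 1.14 TPM at 1 g (log2 change 0.24 ± 0.27, SE, adjusted p = 0.728, limma). CheB42c also shares 961 exon bases with mim on the same strand, which was at 33.2 ± 6.33 TPM at 3 g and 31.6 ± 3.94 TPM at 1 g. CheB42a, of the pheromone-sensing neurons, was at 0.12 TPM or less. The others stayed under 1 TPM in every library, with CheA87a (0.94 TPM in 3 g replicate 4) and CheB38a (0.94 TPM in 3 g replicate 3) the highest of them.

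Of the 4 other genes, a6 and Os-C were tested. Os-C, named for its olfactory-specific expression in the adult, read 1.88, 1.96, 1.22 and 2.26 TPM at 3 g and 1.41, 1.12, 1.10 and 1.70 TPM at 1 g (log2 change 0.34 ± 0.22, SE, adjusted p = 0.563, limma). The gene a6 was at 8.05 ± 0.908 TPM at 3 g and 8.15 ± 1.74 TPM at 1 g (SD, n = 4 each), with a log2 change near 0 and a 95% interval from -0.42 to 0.42. The chemosensory protein gene a10, a secreted antennal protein of another fold, read 0.13, 0, 0 and 0.24 TPM at 3 g and 0, 0.34, 0.43 and 0.54 TPM at 1 g. Another carrier of the family of a10, Phk-3, was abundant, at 1028 ± 458 TPM at 3 g and 615 ± 387 TPM at 1 g (SD, n = 4 each), and did not pass (log2 change 0.79 ± 0.51, SE, adjusted p = 0.569, limma).

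The pools at 3 g were more unlike each other in the carrier genes than the controls were. Of the 26 tested members, 21 (80.8%) had a larger SD of log2 values at 3 g, as did 58.2% of all genes tested. The median SD of the members was 0.66 at 3 g and 0.37 at 1 g, and over all genes tested it was 0.28 at 3 g and 0.26 at 1 g. Among the 11 members with a mean of at least 10 TPM, 3 g replicate 4 was the lowest of the 8 libraries for 7 (Obp56a, Obp44a, Obp99a, Obp83g, Obp83ef, Obp83cd and Obp99d) and the highest for 2 (Obp99b and Obp56d). Of all genes with such a mean, 10.6% were lowest and 10.4% highest in that library. Among the 15 members of 1 to 10 TPM, 3 g replicate 2 was lowest for 5, a share close to the 30.6% of all genes at that level for which it was lowest.

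**Figure D4:**
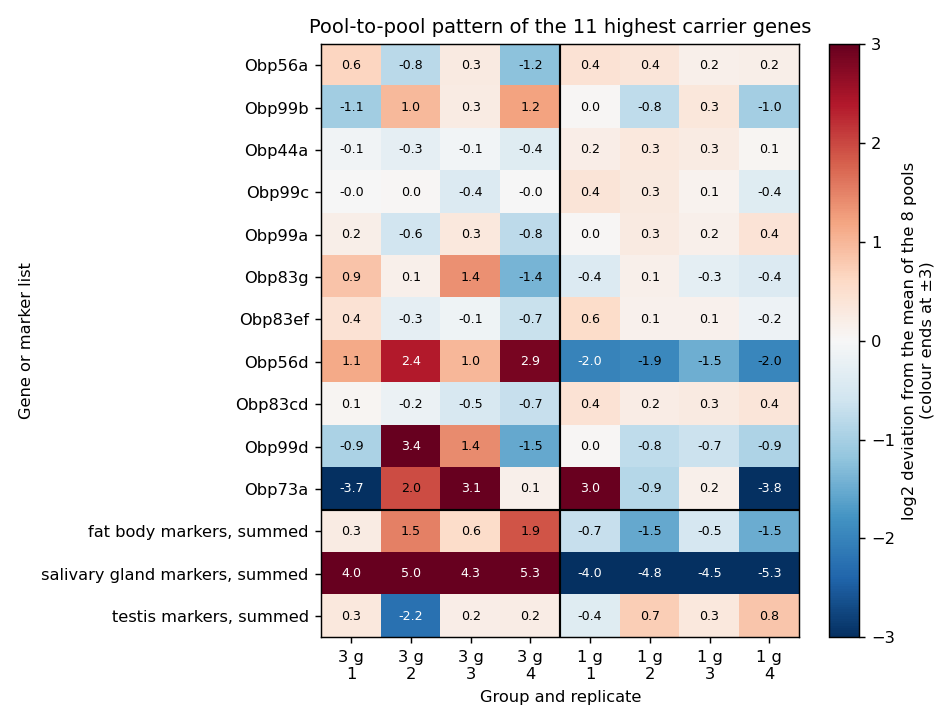
Log2 deviation of the 11 highest carrier genes, and of 3 summed marker lists below the line, from their mean over the 8 pools, for 3 g replicates 1 to 4 on the left and 1 g replicates 1 to 4 on the right. Obp56d is above its mean in every pool at 3 g. Obp99b is high and Obp56a low in 3 g replicates 2 and 4, where the fat body and salivary gland sums are highest.

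Other genes of the sense of smell and taste were examined in 6 lists, in which no gene passed the adjusted threshold (limma). Counts at an unadjusted p under 0.05 in these lists stand beside 16.3% of all genes tested. Odorant receptors were nearly silent: 2 of 60 had a mean of at least 1 TPM, and none of them an unadjusted p under 0.05. The higher was Or43b, at 5.97 ± 0.758 TPM at 3 g and 5.38 ± 1.13 TPM at 1 g (SD, n = 4 each). Of 60 ionotropic receptors 13 were tested and 1 had an unadjusted p under 0.05, and of 60 gustatory receptors 10 were tested and none did. Ir75d was at 4.51 ± 2.98 TPM at 3 g and 4.84 ± 3.78 TPM at 1 g, and the sugar receptor gene Gr64a at 8.87 ± 2.16 TPM at 3 g and 8.64 ± 1.73 TPM at 1 g. Median log2 changes were -0.02, -0.20 and 0.05 in the odorant, ionotropic and gustatory lists, beside -0.02 over all genes.

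Of the clearance enzymes and membrane cofactors, 7 of 9 were tested, and 4 had an unadjusted p under 0.05 (median log2 change -0.06). The scavenger receptor genes emp and crq were the highest of them, emp at 193 ± 40.4 TPM at 3 g and 220.4 ± 10.6 TPM at 1 g, and crq at 134 ± 18.6 TPM at 3 g and 97.7 ± 16.0 TPM at 1 g (adjusted p = 0.189, limma). Among other soluble lipid carriers 13 of 16 in the table were tested, 5 with an unadjusted p under 0.05 (median 0.06), and the fatty acid carrier gene fabp stood at 1142 ± 267 TPM at 3 g and 1084 ± 182 TPM at 1 g. The last list held genes that specify chemosensory organs or build their hairs. It also held fru, dsx, Hr38 and the channel genes ppk23, ppk25, ppk29, nan and iav. In it 16 of 20 in the table were tested, 2 with an unadjusted p under 0.05 (median -0.05). The highest was fru, at 50.6 ± 36.7 TPM at 3 g and 40.0 ± 16.7 TPM at 1 g. Next came pdm3, at 24.3 ± 5.61 TPM at 3 g and 24.9 ± 4.85 TPM at 1 g.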

How the data were processed

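Polyadenylated RNA of 8 pools of whole pupae, 4 at 3 g and 4 at 1 g, was sequenced. Per the submitters' processing notes, the tools were Trimmomatic 0.30, CASAVA, eXpress 1.5.1, DESeq and Bowtie2 2.1.0. Their roles, the build, the annotation and any use of strand were not given in the sources used here. The deposited table holds whole numbers, treated as a score. Each library sums to 1000000 after division by 100, so the deposited values were read as TPM times 100.

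Names were matched to RefSeq (Release 6 plus ISO1 MT): all 76 equalled a current symbol. That table and the Ensembl models served only for neighbours and exon overlaps, and no coordinates or sequences were used. Genes averaging 1 TPM or more were fitted on log2(TPM + 0.5) in limma 3.58.1 (R 4.3.3) with an intensity trend and no covariate; the code was tested on simulated data. Figures used matplotlib 3.10.9.

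Members, gene lists and tests were chosen with earlier results of these data known. Named are the members past the threshold or with separate groups, the 12 highest, and lush, Obp28a, Obp83a, Obp83b, Os-C, a5 and a10; from each related list, up to 4 genes past the threshold or else the 2 highest. Other members are described by class, chosen after their values were seen. Alternatives were pseudocounts of 0.1 and 1, no minimum, a 5 TPM minimum, a robust fit, array weights, no trend, quantile normalization, median-of-ratios rescaling, the replicate block and each library left out. Leaving out 3 g replicate 2 and 1 g replicate 4 together was added after seeing the data.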

Additional observations from a re-analysis of the deposited data

Results flagged for a closer look

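In 5 of 60 groups of 4 pools examined, 1 pool stood apart from the other 3 by more than Dixon's 95% limit, where chance gives about 1 in 20. Obp56d was 9.36 TPM in 1 g replicate 3 against 6.20 to 6.53 TPM in the other controls, still below every pool at 3 g. Obp99c was 1207 TPM in 3 g replicate 3 against 1591 to 1661 TPM in the other pools at 3 g. Obp73a was 67.93 TPM in 1 g replicate 1 against 0.15 to 9.31 TPM in the other controls. Obp83a was listed at 0 in 3 g replicate 3 and at 0.08 TPM in each of the other pools at 3 g. Obp49a was 1.66 TPM in 1 g replicate 4 against 1.18 to 1.20 TPM in the other controls.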

How the results depend on the processing

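Obp56d was the 1 member called higher in all 19 alternatives, with log2 changes of 3.05 to 3.96 and adjusted p of 0.00114 to 0.0483 (limma). Members called lower numbered 1 after median-of-ratios rescaling (Obp44a), 2 with array weights (Obp44a and Obp83cd, from weights whose iteration stopped short of its tolerance), and 0 to 1 with 1 library left out. The summed carrier level differed by -399 TPM (3 g minus 1 g), and by -974 to -31.0 with 1 library left out. Among the 26 tested members, all run under these alternatives where they met the minimum, the sign turned, never past the threshold, for a6 (-0.00030 with a pseudocount of 1, -0.0259 after median-of-ratios rescaling, -0.15 with both doubted libraries left out, -0.15 to 0.0772 with 1 library left out), Obp73a (-0.0629 with array weights, -0.90 with both left out, -0.37 to 2.12 with 1 left out), lush (-0.10 to 0.22 with 1 left out), Obp99b (-0.20 with array weights), CheB42c (-0.20 with array weights, -0.0303 with both left out), CheA29a (-0.0751 with array weights, -0.00034 with both left out, -0.0615 to 0.71 with 1 left out), Obp50d (0.34 with array weights, 0.18 with both left out, -0.45 to 0.13 with 1 left out), Obp56i (0.13 with both left out, -0.75 to 0.0678 with 1 left out), and Obp93a (0.0913) and Obp50b and Obp50c (0.0907 each) with both left out. The cause was not tested. The genes called over the whole table, 516, numbered 147 with the replicate block, 1193 with array weights, 228 with both left out and 275, 335, 162 and 206 without 3 g replicate 2, 3 g replicate 4, 1 g replicate 2 and 1 g replicate 3 in turn. The labels do not say that replicate numbers mark pairs, and deviations of same-numbered pools correlated at -0.38, -0.52, 0.06 and 0.08. With the replicate block Obp56d had an adjusted p of 0.0483, and 1 member was higher and 0 lower. TPM keeps no depth, so members below 1 TPM cannot be judged for counting error.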
